A study of Mus musculus with 6 samples.

Results

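The genes described here encode the proteins that join epithelial cells to one another and the regulators that keep cells epithelial. The 45 genes were chosen by name, with no measured value in the rule. Earlier results of these data were known when the list was chosen. All 45 were found among the 15973 protein-coding genes of the authors' table. Of these, 44 passed a filter on low counts and were tested among 12572 genes. The exception was Gjb2, a connexin of gap junctions, whose counts in replicates 1, 2 and 3 were 6, 0 and 0 with low uptake and 4, 0 and 0 with high uptake. The set holds 6 genes of adherens junctions and epithelial adhesion, 10 of desmosomes and their cytolinkers, 16 of tight junctions, 3 of cell polarity, 7 identity regulators, 2 surface proteases and the connexin.

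All libraries came from the 4T1-T VM sub-clone, a single clone derived from the mouse 4T1 mammary carcinoma that the study classes as proficient in vasculogenic mimicry (VM). Serum-starved cultures took up acetylated low-density lipoprotein (acLDL) labelled with Alexa-488 at 10 ug/mL for 4 h and were returned to complete medium for 1 h. The brightest 25% of cells were sorted as acLDL-high and the dimmest 25% as acLDL-low, so each population is the reference for the other and neither carries a genetic change. There were 3 libraries of each population, numbered as replicates 1 to 3, and libraries of one number were treated as a pair. What separates the numbers, such as a culture or a day, is not given in the sources used here. The comparison asks which transcripts differ between cells that take up much and little of a lipoprotein whose uptake is used as a test of endothelial character.

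Epithelial cells are held together by tight junctions at the apical end of their lateral membranes, adherens junctions just below and desmosomes further down. Claudins form the tight junction strands, occludin and tricellulin join them, and plaque proteins such as ZO-1 tie them to actin. E-cadherin and its catenins build adherens junctions, and desmosomal cadherins are linked by plakoglobin, plakophilins and desmoplakin to keratin filaments. Grainyhead-like, OVOL and ESRP proteins maintain this state at the level of transcription or splicing, and carcinoma cells that pass through an epithelial-mesenchymal transition (EMT) lose much of it.

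The 6 libraries held between 70263372 and 94216786 counts, and the 45 genes took between 0.477% and 0.597% of each, so 3 counts in a library correspond to at most 0.0427 CPM (counts per 1000000 counts), a limit that covers counting error only. Counts of the rare Gjb2, Cldn1 and Cdh3 were even numbers in every library. Whether both mates of a read pair were counted is not given in the sources used here, and if so this limit is too low. CPM values below were scaled by TMM (trimmed mean of M-values), apart from the summed markers. The cells carried the keratins of simple epithelium, with Krt8 between 865 and 1389 CPM and Krt18 between 746 and 1420 CPM in every library. None of the 6 epithelial markers tested was called (edgeR). Of the 6, 2 were higher at an unadjusted p under 0.05, beside 10.6% of all genes tested. Of the basal keratins, Krt14 lay between 31.1 and 249 CPM and was highest in both libraries of replicate 2, while Krt5, the leukocyte markers Adgre1 and Tyrobp, the endothelial marker Emcn and the fibroblast marker Lum had 0 counts throughout. Summed markers of macrophages and leukocytes, in CPM not scaled by TMM, lay at 18.0 to 22.5 in acLDL-low and 18.9 to 24.1 in acLDL-high cells. Also without TMM, the sums were 1.55 to 2.47 and 1.49 to 2.19 CPM for endothelium, and 27.3 to 40.9 and 28.1 to 42.7 CPM for fibroblasts. The fibroblast sum was almost all Pdgfra (28.1 to 42.8 CPM, scaled by TMM). The leukocyte sum was mainly Cd14 (7.89 to 14.0 CPM) and Cd68 (6.75 to 10.7 CPM). Tie1 (0.883 to 2.03 CPM) was the largest part of the endothelial sum, so each sum rests on few genes. Of 9 markers tested across these 3 lists, Cd14 was the only one called, with a log2 fold change of 0.32, beside 3.43% of all genes called higher. Of 10 G2/M genes, 7 were called higher, beside 3.43% of all genes tested, and 0 lower, beside 1.32%. With an unadjusted p under 0.05 there were 9 higher, beside 10.6%, and 0 lower, beside 8.73%. The part of these genes in the results below was not tested, and in sorted populations a smaller number of expressing cells and less RNA per cell cannot be told apart.

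Levels were compared between genes per kilobase of merged exons. By this measure the most abundant of the 45 transcripts was Cldn4, with a mean of 274 CPM per kb and a range over the 6 libraries of 179 to 380. Cdh1, which encodes E-cadherin, had 186 CPM per kb (range 166 to 199) and Ctnnb1, which encodes beta-catenin, 172 (range 132 to 205). These 3 ranges overlap. Cldn3 followed with 103 CPM per kb (range 80.2 to 129). At the other end, Cldn1 was at 0.0288 CPM per kb and Cdh3, which encodes P-cadherin, at 0.235, far under Cdh1, and Cdh2, which encodes N-cadherin, had 0 counts in all libraries. The epithelial transcripts stood beside mesenchymal ones, with Vim between 3219 and 3875 CPM and Fn1 between 3316 and 10029 CPM. In the EMT list of 12 genes, 9 were tested, and Snai2 had 0 counts. Of the 9, Fn1 alone was higher in acLDL-high cells (log2 fold change 0.22, adjusted p = 0.0422), beside 3.43% of all genes tested. Lower genes numbered 0, beside 1.32%. At an unadjusted p under 0.05 there were 3 higher (Fn1, Zeb1 and Snai3), beside 10.6%, and 1 lower (Snai1), beside 8.73%. The log2 fold changes were 0.62 for Zeb1, 0.61 for Snai3 and -0.20 for Snai1. Zeb1 and Snai3 were rare, at 0.486 to 2.02 and 0.229 to 1.07 CPM.

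**Figure D1:**
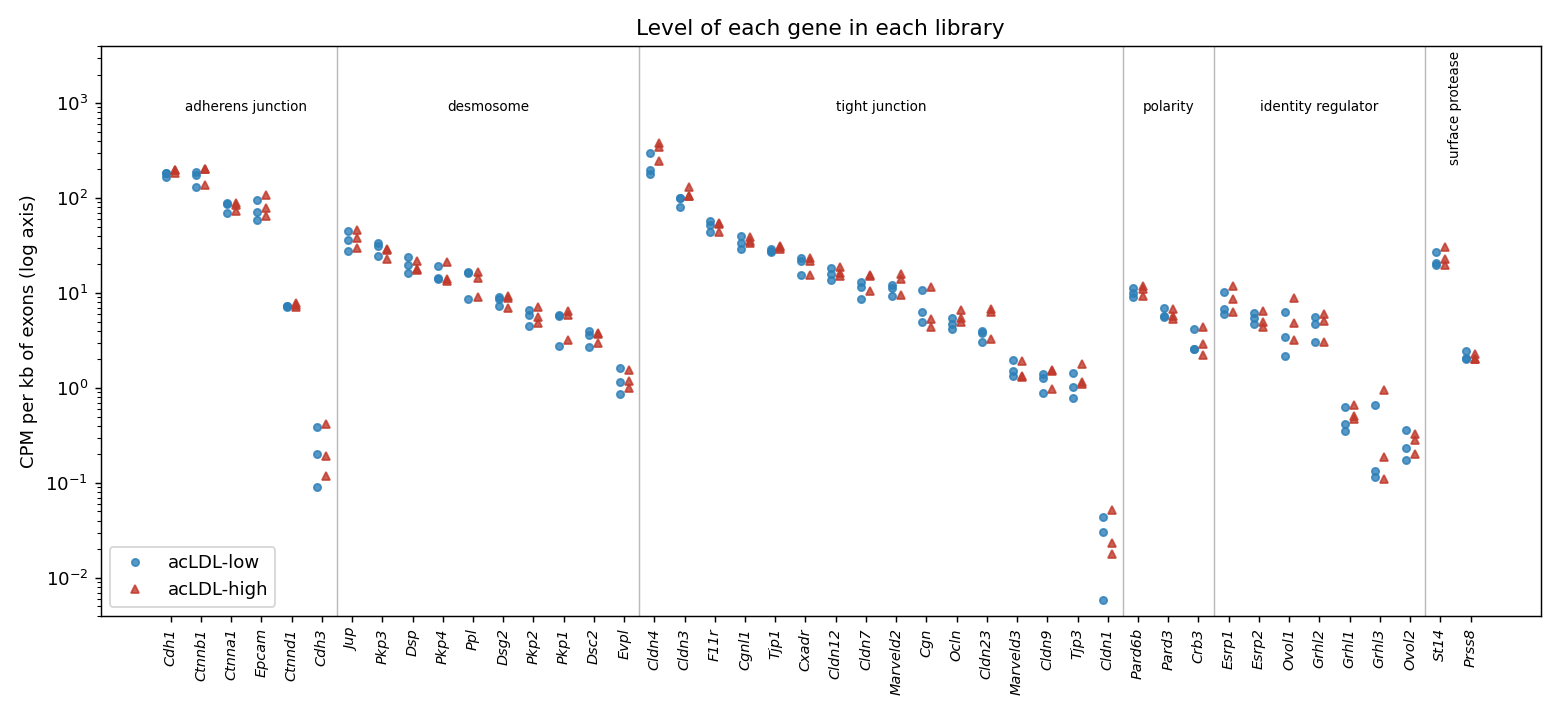
TMM-scaled CPM per kb of merged exons on a log axis for 44 genes, ordered by role and mean level, with 1 point per library (circles acLDL-low, triangles acLDL-high). Gjb2 is not drawn because it had 0 counts in 4 libraries. Cldn4, Cdh1 and Ctnnb1 lead, and the points of the 2 populations overlap for every gene drawn except Cdh1 and Cldn3.

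Junction genes that differed between the populations were higher in acLDL-high cells, and they were mostly transmembrane proteins of tight junctions. In an edgeR quasi-likelihood fit that held each pair as a block, 8 of 44 genes were higher in acLDL-high cells at an adjusted p under 0.05, beside 3.43% of all genes tested, and 0 were lower, beside 1.32%. At an unadjusted p under 0.05 there were 14 higher, beside 10.6% of all genes tested, and 1 lower, beside 8.73%. DESeq2 called the same 8 and Cdh1 higher, beside 3.18% of all genes, and 0 lower. The 8 were Cldn23, Cldn4, Ovol1, Cldn7, Cldn3, Marveld2, Ocln and Esrp1. The median log2 fold change of the 44 genes was 0.09, beside 0.00 for all genes tested, so the shifts were small and most of the genes were not called. Within pairs, 19 of the 44 genes were above their acLDL-low partner in all 3 pairs, beside 20.9% of all genes, and 2 were below it in all 3, beside 19.5%. These are signs of differences and not calls. By role, 6 of 16 tight junction genes and 2 of 7 identity regulators were called, and 0 of 6 adherens junction, 0 of 10 desmosomal, 0 of 3 polarity and 0 of 2 protease genes. In these uncalled roles 3, 1, 0 and 0 genes respectively were higher and 0, 1, 0 and 0 lower at an unadjusted p under 0.05, with the same shares of all genes as background.

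**Figure D2:**
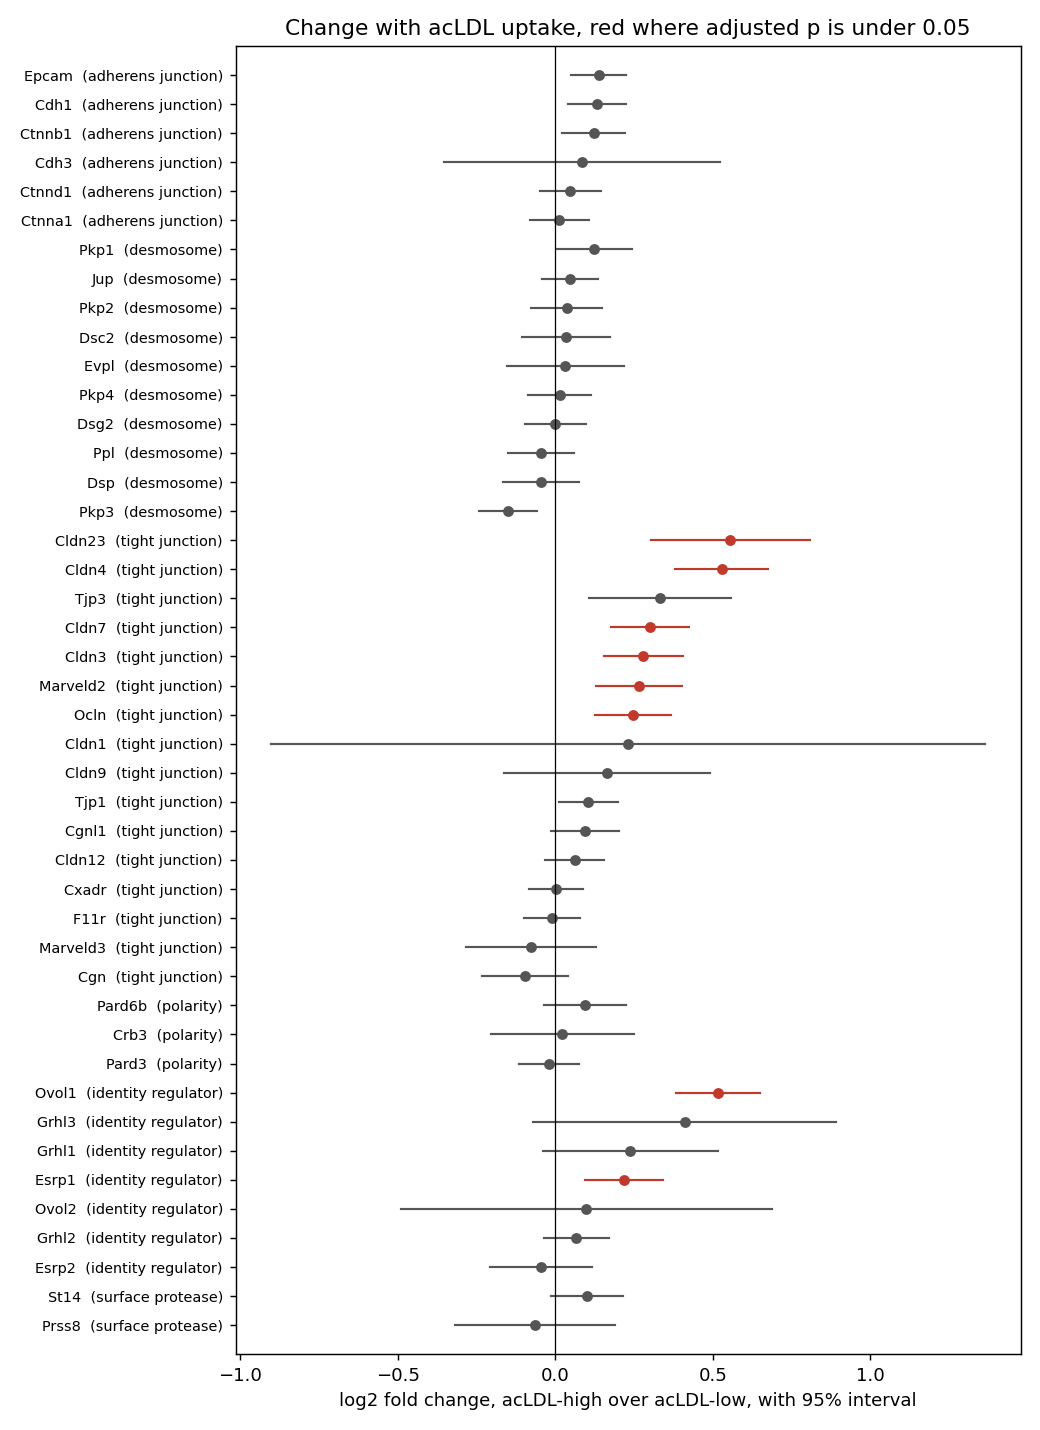
Log2 fold change of acLDL-high over acLDL-low cells for 44 genes, by role, with the 95% interval of the edgeR fit (3 pairs), red where the adjusted p is under 0.05. The 8 red points all lie to the right of 0, between 0.22 (Esrp1) and 0.56 (Cldn23), and 6 of them are tight junction genes.

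These calls rest on comparing libraries of the same replicate number. Without the block edgeR called 0 of the 44 genes in either direction, with 0 at an unadjusted p under 0.05 as well, although all 8 kept a positive log2 fold change. That fit called 0 of 12329 genes. Leaving out replicate 3 left Cldn3, Cldn4 and Ovol1 called, leaving out replicate 1 lost Ocln and Marveld2, and leaving out replicate 2 lost Esrp1. The shares of all genes called higher were 0.902%, 3.55% and 4.82% respectively, beside 3.43% with all pairs. Cldn3, Cldn4 and Ovol1 were thus called whichever pair was left out.

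Of the 7 claudins in the set, 4 were higher in acLDL-high cells, beside 3.43% of all genes tested, and 0 lower, beside 1.32%. The called genes spanned the most abundant and some of the rarer ones. These counts leave out claudins of the further list of junction genes described below, none of which was called in either direction. Cldn4, a claudin of many simple epithelia, was at 326, 544 and 360 CPM in acLDL-low replicates 1, 2 and 3 and 445, 690 and 624 CPM in the matching acLDL-high libraries. Each acLDL-high library was above its partner while the groups overlapped, because the acLDL-low library of replicate 2 exceeded the acLDL-high library of replicate 1. The fold was 1.44 (log2 0.53 ± 0.07 SE, adjusted p = 0.000832). Cldn3, which like Cldn4 can bind the Clostridium perfringens enterotoxin, was at 127, 101 and 126 CPM in acLDL-low and 163, 134 and 132 CPM in acLDL-high cells. All 3 acLDL-high libraries lay above all 3 acLDL-low ones, narrowly in replicate 3. Such separation was seen for 2 of the 44 genes, Cldn3 and Cdh1, beside 1.23% of all genes, and the opposite separation for 0 of the 44, beside 1.63%. The log2 fold change of Cldn3 was 0.28 ± 0.06 (SE, adjusted p = 0.0161).

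Cldn7, a claudin found along the lateral membrane as well as in tight junctions, gave 16.8, 22.5 and 25.3 CPM in the low-uptake libraries and 20.5, 29.9 and 29.3 CPM in the high-uptake ones. All 3 pairs rose and replicate 1 was the lowest of both populations (log2 fold change 0.30 ± 0.06 SE, adjusted p = 0.0102). Cldn23 gave 7.27, 5.67 and 7.01 CPM in the low-uptake libraries and 12.5, 6.02 and 11.6 CPM in the high-uptake ones. Its rise was marked in replicates 1 and 3 and small in replicate 2, and it had the largest estimate of the 44 genes with a wide error (log2 fold change 0.56 ± 0.12 SE, 95% interval 0.30 to 0.81, adjusted p = 0.0177). The 3 other claudins of the set were not called. Cldn12 had a log2 fold change of 0.06 (95% interval -0.03 to 0.16) and Cldn9 of 0.16 (95% interval -0.16 to 0.49). Cldn1, at 0.0286 to 0.251 CPM, was too rare to tell, with an interval of -0.90 to 1.36.

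**Figure D3:**
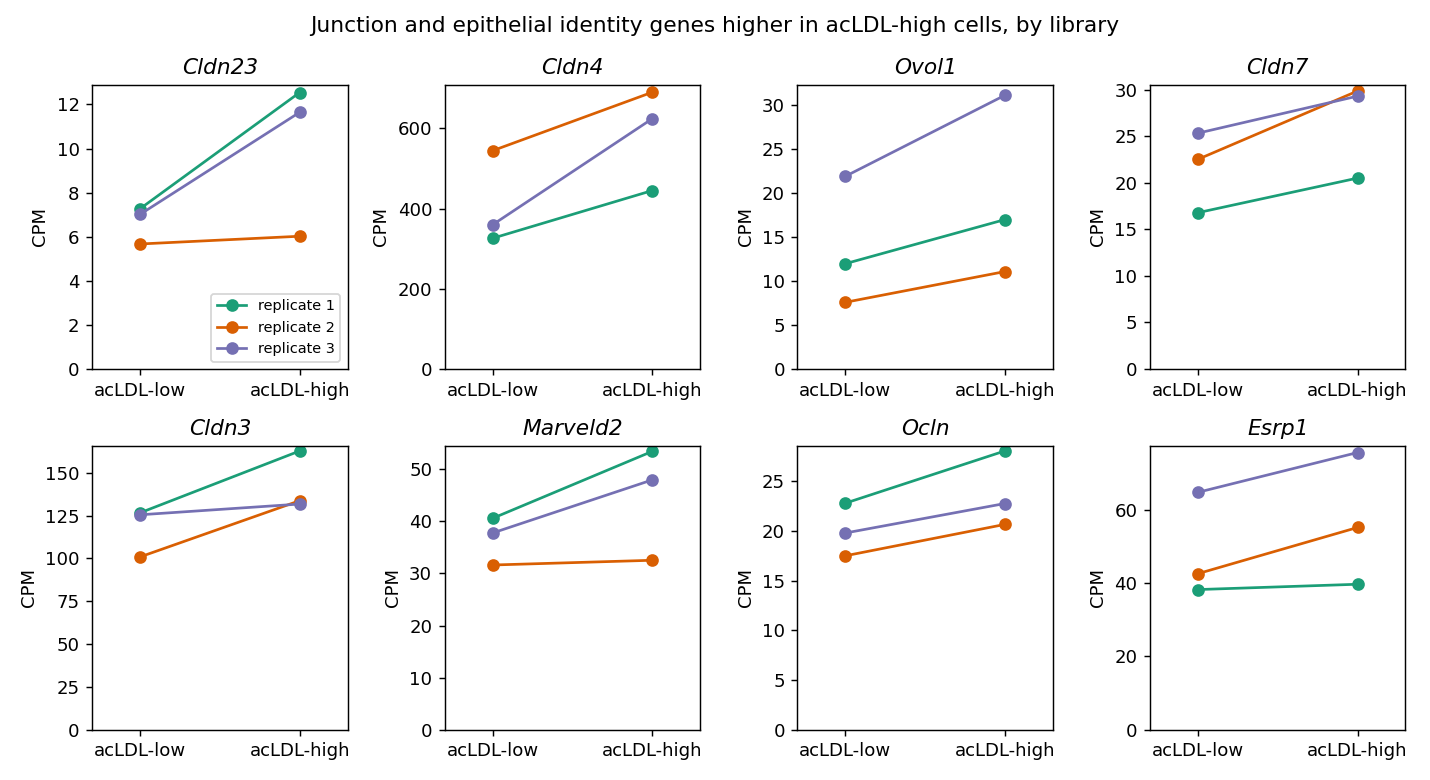
TMM-scaled CPM of the 8 called genes in each of the 6 libraries, each axis starting at 0, with lines joining the acLDL-low and acLDL-high library of one replicate. Every line rises, least for Cldn23 and Marveld2 in replicate 2, Cldn3 in replicate 3 and Esrp1 in replicate 1.

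Summed over the 7 claudins, the level was 308, 414 and 332 CPM per kb in acLDL-low replicates 1, 2 and 3 and 408, 525 and 487 in acLDL-high cells, or 351 ± 55.6 and 473 ± 59.4 (SD, n = 3). The acLDL-high value was the higher in each pair, and the groups overlapped only through replicate 2 of acLDL-low and replicate 1 of acLDL-high cells. Cldn4 made up between 58.3% and 72.5% of this sum and Cldn3 between 19.4% and 32.7%, so the sum follows mainly these 2 genes. The Cldn4 share was highest in the 2 libraries of replicate 2, at 72.5% in both.

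**Figure D4:**
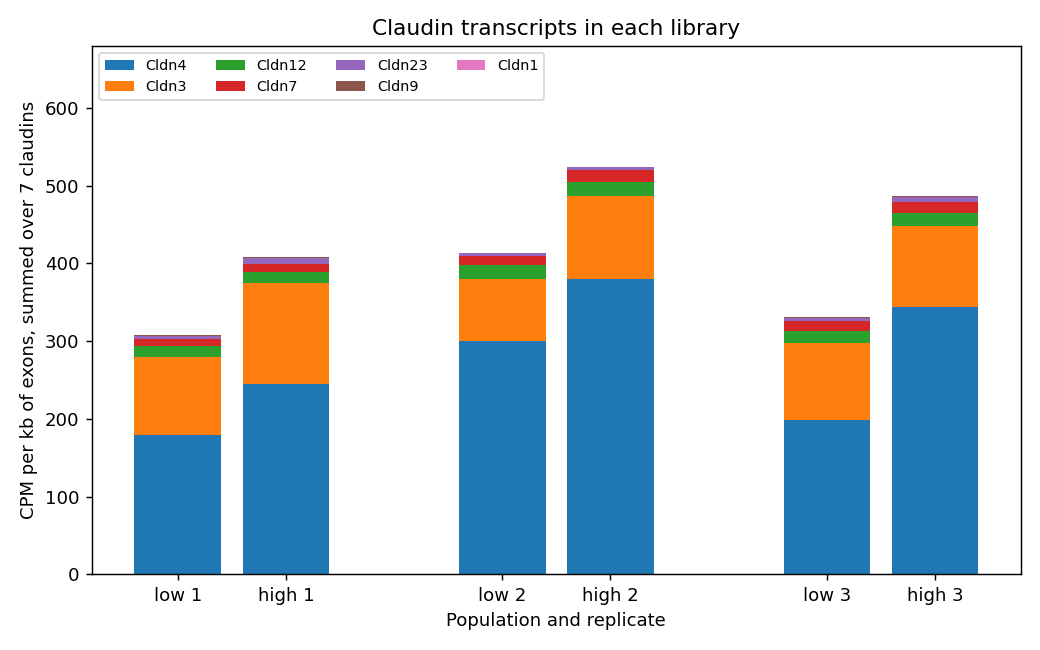
Stacked bars of the 7 claudin transcripts in each library, in TMM-scaled CPM per kb of merged exons, with the 2 populations of each replicate side by side. The acLDL-high bar is the taller in each pair (408 over 308, 525 over 414 and 487 over 332), and Cldn4 and Cldn3 fill most of every bar.

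Occludin and tricellulin, tetraspan proteins of the MARVEL family, were also higher in acLDL-high cells. Ocln gave 22.8, 17.5 and 19.8 CPM in the low-uptake libraries and 28.0, 20.6 and 22.8 CPM in the high-uptake ones, a rise in each pair within overlapping groups (log2 fold change 0.25 ± 0.06 SE, adjusted p = 0.0249). Marveld2, which encodes tricellulin, the protein of sites where 3 cells meet, gave 40.6, 31.6 and 37.8 CPM in the low-uptake libraries and 53.5, 32.5 and 48.0 CPM in the high-uptake ones (log2 fold change 0.26 ± 0.06 SE, adjusted p = 0.0327). Replicate 2 was the lowest of both populations and rose little. Marveld3, the remaining family member listed, was lower in all 3 pairs by a small amount, with a log2 fold change of -0.08 and a 95% interval of -0.28 to 0.13.

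The tight junction plaque gave no call among 4 genes, with 2 higher and 0 lower at an unadjusted p under 0.05, too few to set against the 10.6% of all genes. Tjp3, which encodes ZO-3, gave 5.30, 2.92 and 3.76 CPM in the low-uptake libraries and 6.69, 4.07 and 4.29 CPM in the high-uptake ones. It was higher in each pair, with a log2 fold change of 0.33 ± 0.10 SE that missed the threshold (adjusted p = 0.0977) and passed it without the low-count filter. Tjp1, which encodes ZO-1, had a log2 fold change of 0.10 (95% interval 0.01 to 0.20, adjusted p = 0.201). Cgnl1, which encodes paracingulin, had 0.09 (95% interval -0.01 to 0.20) and Cgn, which encodes cingulin, -0.10 (95% interval -0.23 to 0.04). Cgn moved to -0.21 without replicate 2, where it was called lower (adjusted p = 0.0328), and to -0.03 without replicate 1 and -0.06 without replicate 3. The adhesion molecules of the immunoglobulin superfamily at tight junctions lay near 0, with F11r, which encodes JAM-A, at -0.01 (95% interval -0.10 to 0.08) and the coxsackievirus and adenovirus receptor gene Cxadr at 0.00 (95% interval -0.08 to 0.09). For these 2 genes the intervals leave room for changes of at most about 0.10 on the log2 scale.

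Sequence upstream of the start of transcription was available from RefSeq (build GRCm38.p6) for 25 of the 45 genes and for 5 of the 8 called. The 250 bases before the start are shown for both abundant claudins, which lie on chromosome 5 on opposite strands at chr5:134945119-134946934 (Cldn4, minus strand) and chr5:134986214-134987472 (Cldn3, plus strand), and for Ocln at chr13:100496507-100552718 (minus strand). The windows are chr5:134946935-134947184 for Cldn4, chr5:134985964-134986213 for Cldn3 and chr13:100552719-100552968 for Ocln, each read 5′ to 3′ on the gene's strand. Capitals mark the E-box searched for, a hexamer of the kind bound by the EMT repressors of the ZEB and SNAI families.
Cldn4: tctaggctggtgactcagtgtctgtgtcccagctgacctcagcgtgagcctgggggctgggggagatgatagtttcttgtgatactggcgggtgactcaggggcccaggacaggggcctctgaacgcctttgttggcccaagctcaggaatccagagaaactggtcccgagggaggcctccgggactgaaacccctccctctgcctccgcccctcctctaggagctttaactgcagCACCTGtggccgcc
Cldn3: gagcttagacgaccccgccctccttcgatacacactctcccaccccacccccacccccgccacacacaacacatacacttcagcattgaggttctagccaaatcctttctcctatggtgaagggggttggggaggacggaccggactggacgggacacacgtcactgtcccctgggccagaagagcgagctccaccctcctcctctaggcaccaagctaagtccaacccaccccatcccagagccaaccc
Ocln: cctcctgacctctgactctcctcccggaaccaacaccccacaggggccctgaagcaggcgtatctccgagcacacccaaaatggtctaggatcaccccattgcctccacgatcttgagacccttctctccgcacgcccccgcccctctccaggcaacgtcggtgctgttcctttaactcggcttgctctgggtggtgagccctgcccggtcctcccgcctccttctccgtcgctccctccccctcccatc

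The E-box CAGGTG, read on both strands, was found in 17.1% of 27025 such windows over all genes and in 15.2% of 9851 windows of genes tested, and in 8 of the 25 windows of the junction and identity genes. Of the 5 called genes with a window, Cldn4 alone had it, as CACCTG beginning 14 bases before the start. The windows of Cldn3, Cldn7, Marveld2 and Ocln did not hold these letters. The motif CCGTTA, the core of OVOL binding sites, was in 2.18% of all windows, in 1 of the 25 (Crb3) and in 0 of the 5. The GC box GGGCGG, on both strands, was in 33.0% of all windows, in 59.7% of those of genes tested, in 20 of the 25 and in 4 of the 5, the exception being Cldn7. These are matches of letters and not binding sites.

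Adherens junction genes had small positive estimates and none was called. Cdh1 gave 758, 843 and 831 CPM in the low-uptake libraries and 848, 909 and 908 CPM in the high-uptake ones. The groups did not overlap, by a margin of a few CPM between replicate 2 of acLDL-low and replicate 1 of acLDL-high cells. The log2 fold change was 0.13 (95% interval 0.04 to 0.23), with an adjusted p of 0.108 in edgeR and 0.0473 in DESeq2. Epcam, which encodes an epithelial adhesion molecule that associates with claudin-7, gave 129, 158 and 208 CPM in the low-uptake libraries and 141, 172 and 234 CPM in the high-uptake ones. It was higher in each pair by far less than it differed between replicate numbers (log2 fold change 0.14, adjusted p = 0.0763, passing the threshold without the low-count filter). Ctnnb1 had a log2 fold change of 0.12 (95% interval 0.02 to 0.22, adjusted p = 0.173) and was called when replicate 2 was left out. For Ctnna1, which encodes alpha-catenin, and Ctnnd1, which encodes p120 catenin, the intervals were -0.08 to 0.11 and -0.05 to 0.14. The Ctnnd1 level carries a limit, since 4482 of its exonic bases are shared with another annotated gene on the same strand. Cdh3 was at 0.400 to 1.81 CPM and its interval, -0.35 to 0.52, was wide.

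None of the 10 desmosome genes was called, and their median log2 fold change was 0.02. The desmosomal cadherin gene Dsg2 had a log2 fold change of 0.00 (95% interval -0.10 to 0.10) and its partner Dsc2 of 0.04 (95% interval -0.10 to 0.17). Dsp, which encodes desmoplakin, had -0.05 (95% interval -0.17 to 0.08) and Jup, which encodes plakoglobin, 0.05 (95% interval -0.04 to 0.13). Ppl and Evpl, which encode the cytolinkers periplakin and envoplakin, had -0.04 and 0.03. The plakophilins spanned the whole range of the desmosomal estimates, -0.15 to 0.12. Pkp3, the most abundant of the 4 with 45.7% to 57.9% of their summed level per kb, gave 89.0, 112 and 121 CPM in the low-uptake libraries and 82.2, 103 and 105 CPM in the high-uptake ones. It was lower in each pair and the only one of the 44 genes lower at an unadjusted p under 0.05 (log2 fold change -0.15 ± 0.04 SE, adjusted p = 0.0649). Pkp1 had a log2 fold change of 0.12 (95% interval 0.00 to 0.24, adjusted p = 0.253), and Pkp2 and Pkp4 had 0.04 and 0.01.

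Among the identity regulators, Ovol1 and Esrp1 were higher in acLDL-high cells. Ovol1, a zinc finger repressor that opposes EMT, gave 11.9, 7.56 and 21.9 CPM in the low-uptake libraries and 17.0, 11.1 and 31.1 CPM in the high-uptake ones. The rise was nearly the same in each pair on the log scale, while the replicate numbers spanned a wider range than the populations, and the fold was 1.43 (log2 0.52 ± 0.06 SE, adjusted p = 0.000486). Of the exonic bases of Ovol1, 766 are also covered by genes of the opposite strand, and the strand setting of the counting is not given in the sources used here. Esrp1, which encodes a regulator of epithelial splicing, gave 38.2, 42.5 and 64.7 CPM in the low-uptake libraries and 39.6, 55.1 and 75.6 CPM in the high-uptake ones (log2 fold change 0.22 ± 0.06 SE, adjusted p = 0.0456). It barely rose in replicate 1, and its estimate was 0.14 (adjusted p = 0.174) with replicate 2 left out. The related Ovol2 and Esrp2 had intervals of -0.49 to 0.69 and -0.21 to 0.12, and Ovol2 was rare at 0.370 to 0.757 CPM.

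Grainyhead-like factors, which bind and keep open the enhancers of junction genes, were not called. Grhl2 made up between 65.0% and 91.3% of their summed level per kb and had a log2 fold change of 0.07 (95% interval -0.04 to 0.17). Grhl1 had 0.24 (95% interval -0.04 to 0.52) and Grhl3 0.41 (95% interval -0.07 to 0.89), both with estimates too uncertain for a direction. The polarity genes Pard3, Pard6b and Crb3 had log2 fold changes of -0.02, 0.09 and 0.02. St14, which encodes the surface protease matriptase, had 0.10 (95% interval -0.01 to 0.21) and Prss8, which encodes prostasin, -0.07 (95% interval -0.32 to 0.19). Gjb2 was seen only in the libraries of replicate 1, at 0.0793 CPM in acLDL-low and 0.0503 CPM in acLDL-high cells.

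Of a list of 55 other junction, polarity and epithelial genes, 41 were tested, with a median log2 fold change of 0.05. Of the 41, 6 were higher in acLDL-high cells, beside 3.43% of all genes tested, and 0 lower, beside 1.32%. With an unadjusted p under 0.05 there were 10 higher, beside 10.6%, and 3 lower, beside 8.73%. DESeq2 called 2 of the 41 higher, beside 3.18% of all genes. Rab25, a GTPase of epithelial membrane recycling, had a log2 fold change of 0.59 at 0.912 to 2.98 CPM (adjusted p = 0.0492), and lost its call in DESeq2 (adjusted p = 0.124) and with any one pair left out (0.0573 to 0.201). Mal2, a protein of apical transport, had 0.29 (adjusted p = 0.0495) and lost its call in DESeq2 (adjusted p = 0.0674), with at least 10 counts in every library (0.0548) and without replicate 1 (0.228) or 3 (0.103). Spint1, which encodes an inhibitor of matriptase and prostasin, had 0.20 (adjusted p = 0.0387), kept its call in DESeq2 (0.0274) and lost it without replicate 1 (0.138) or 3 (0.257).

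Differences between replicate numbers were common over all genes, these included. In a quasi-likelihood F test of the replicate terms in the same fit, 38 of the 44 genes differed between replicate numbers, beside 78.0% of all genes tested. The range of the 3 replicate means exceeded the fitted difference between the 2 populations in 42 of the 44 genes and in 11988 of the 12572 genes tested, with a median range of 0.55 on the log2 scale for the 44 and 0.45 for all. The 2 exceptions were Cdh1, with a range of 0.13, and Tjp1, with 0.08. The genes not called between replicate numbers were Cdh1, Ctnnd1, Tjp1, Cldn1, Ovol2 and Prss8, and among them Cdh1, Ctnnd1 and Tjp1 had the smallest ranges of all 44, from 0.08 to 0.13.

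No single replicate number had the highest level of most genes. Replicate 1 had the highest mean for 14 of the 44 genes and the lowest for 15, replicate 2 for 12 and 18, and replicate 3 for 18 and 11. Grhl3, a factor of epidermal barrier formation, was at 1.82 and 2.66 CPM in replicate 1 and between 0.306 and 0.517 CPM in the other libraries, a range of 2.72 on the log2 scale and the widest of the set. Cdh3 was also highest in replicate 1 (range 1.90), whereas Grhl2 was lowest there, at 26.1 and 26.0 CPM beside 40.8 to 51.9 CPM elsewhere. Cgn was at 64.8 and 70.0 CPM in replicate 2 and between 26.5 and 38.1 CPM in the others (range 1.25), while the cytolinker gene Ppl was lowest in replicate 2, at 59.9 and 61.8 CPM beside 100.3 to 116 CPM. Ovol1 and Epcam were highest in replicate 3, with ranges of 1.51 and 0.71.

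**Figure D5:**
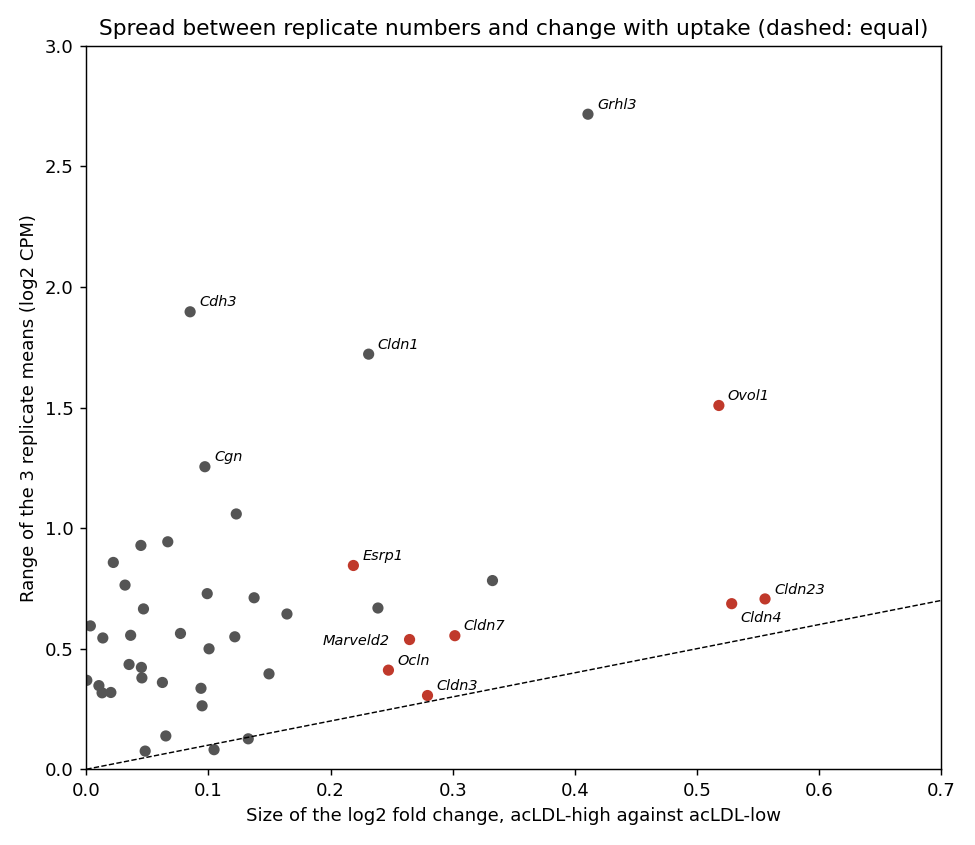
For 44 genes, the range of the 3 replicate means in log2 CPM against the size of the log2 fold change between acLDL-high and acLDL-low cells, with the dashed line where both are equal and called genes in red. All but 2 points (Cdh1 and Tjp1) lie above the line, from Grhl3 at a range of 2.72 downward.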

How the data were processed

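RNA of 3 acLDL-low and 3 acLDL-high populations was sequenced as stranded, paired-end libraries of polyadenylated RNA. The authors aligned reads to mm10 with STAR (2.5.2a), counted them per gene with featureCounts (1.4.3-p1) and deposited raw counts for 53379 gene IDs. Their table of a DESeq2 comparison (1.20.0), holding mean counts, fold changes and p-values, was used only for symbols and for the choice of protein-coding genes. Annotation release and strand setting are not given in the sources used here.

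Counts were tested with edgeR (4.0.16, R 4.3.3) using filterByExpr with a minimum count of 10, TMM scaling, the replicate number as a block and Benjamini-Hochberg adjustment over all genes tested, two-sided, at 0.05. Differences between replicate numbers were tested on the replicate terms of that fit. A standard error is the estimate over the root of its F statistic. Within pairs, log2 CPM had a prior count of 2. Replicate numbers come from the labels, and the paper's methods include replicate information. Deviations from group means correlated at 0.795, 0.846 and 0.799 within numbers and at -0.557 to -0.0882 across them. No source used here says that the sequenced replicates were separate cultures. With the block, p-values measure only how much the differences within pairs vary among these samples, and that spread may be technical. The fit was tested on data simulated from its own dispersions, with planted changes larger than those of the called junction genes. That test therefore does not bear on changes of their size.

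Exon lengths, positions and overlaps come from GENCODE M21 (GRCm38), which held 53274 of the IDs. Of the 45 genes, 15 share exonic bases with another gene. The members and lists were chosen with earlier results of these data known. All members may be named, and of the other junction genes up to 4 called in each direction by size of estimate. One gene that meets it is not reported here. Alternatives were no block, DESeq2 size factors, DESeq2 (1.42.0), other low-count filters, all genes, each pair left out and a threshold of 0.01.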

Additional observations from a re-analysis of the deposited data

How the results depend on the processing

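Of the 44 genes tested, 8 were higher in acLDL-high cells, 0 without the replicate block, 8 with DESeq2 size factors, 9 with DESeq2, 10 with no low-count filter, 7 with at least 10 counts in every library, 8 over all genes of the count table, 2 at a threshold of 0.01 (Cldn4 and Ovol1) and 3 to 8 with one pair left out, the 3 being without replicate 3. The share of all genes called higher moved as well, from 3.43% to 0% without the block and 1.36% at a threshold of 0.01. It was 3.55% without replicate 1, 4.82% without replicate 2 and 0.902% without replicate 3. The 8 kept a positive estimate in all these settings. The count of genes lower in acLDL-high cells was 0 in all of them except without replicate 2, where Cgn was called (range 0 to 1). Of the 41 other junction genes, 6 were higher, 0 without the block (0 of 12329 genes were called then), 2 with DESeq2, 1 at a threshold of 0.01 and 1 to 5 with one pair left out, the 1 being without replicate 1 and also without replicate 3. The 38 genes that differed between replicate numbers became 29 (of 43 tested) without replicate 1, 25 without replicate 2 and 36 without replicate 3. The matching shares of all genes were not computed, so these counts cannot be read as particular to the set. Fewer libraries were tested in each of these fits. The cause of the changes between settings was not tested. In 14 genes, none of them called, the sign changed when one pair was left out, with log2 fold changes of Ctnna1 -0.0133 to 0.0324, Dsp -0.144 to 0.0057, Dsc2 -0.0236 to 0.101, Dsg2 -0.0254 to 0.0366, Pkp4 -0.0473 to 0.0489, Ppl -0.089 to 0.0216, Evpl -0.0437 to 0.0975, F11r -0.0313 to 0.0085, Cldn1 -0.0116 to 0.527, Pard3 -0.0512 to 0.0151, Crb3 -0.0512 to 0.119, Ovol2 -0.107 to 0.365, Esrp2 -0.112 to 0.0864 and Prss8 -0.178 to 0.0594. Depth limits Cldn1, Cdh3, Grhl3, Ovol2 and Gjb2.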

Other observations

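Of the 8 called genes, 4 lie as neighbours in the genome (GRCm38), which was looked at after their values were seen. Cldn3 and Cldn4 are 39.3 kb apart on chromosome 5. Within 200 kb of them lie 13 protein-coding genes of the table, the claudins included, of which 12 were tested and 2 called, namely Cldn3 and Cldn4 themselves. The next genes on either side, Mettl27 and Abhd11, had log2 fold changes of -0.01 ± 0.08 and 0.07 ± 0.05 (SE). Ocln and Marveld2 are 43.2 kb apart on chromosome 13. Within 200 kb of them 13 of 14 genes were tested and 3 called, Ocln, Marveld2 and the mitotic cyclin gene Ccnb1 (log2 fold change 0.49 ± 0.05 SE), while Gtf2h2 and Rad17, next to the pair, had -0.07 ± 0.06 and 0.04 ± 0.05 (SE). Whether such neighbours move together more often than other genes was not tested.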
